A study of Mus musculus with 2 samples.

Results

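A set of 8 neuronal genes was described after controlled cortical impact (CCI), Cbln1, Cbln2, Cbln4, Lamp5, Neurod6, Plcxd2, Wipf3 and Fgf10, of 19070 genes in the gene list. They were chosen by symbol because an earlier look at these data put their levels lowest in lesioned tissue, so the contrast of lesioned with mirror tissue is given here as a description. In the zones used here it was low for only some of them, since against mirror tissue Cbln1 was higher at 3 days and Cbln4 was even at 28 days. Against the whole opposite side both of these were lower. They had been grouped as cortical neuron genes, and this held for only some of them. Cbln1 was mostly outside the cortex, Neurod6 and Wipf3 were highest in hippocampal tiles named CA3 and CA2, and Fgf10 was highest in the thalamus. The lead of Wipf3 over the dentate gyrus at 28 days was within counting error, as was that of Fgf10 over CA3 and CA2. The sections came from male C57Bl6 mice aged 3 months, with no treatment beyond the injury. In CCI a piston strikes the exposed cortex, here above the right parietal lobe. One group was 3 days after CCI and the other 28 days after CCI, with 1 section of 1 mouse in each. The spatial series held no sham section, so the side of the same brain opposite the impact was the only reference. The brains had been perfusion-fixed with PFA and embedded in paraffin, and coronal sections of 10 µm were profiled with Visium HD, in which probe pairs hybridised to each transcript are counted as unique molecular identifiers (UMIs) on a grid of squares, here bins of 16 µm. A bin can hold parts of several cells.

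Cerebellins are secreted proteins of the C1q family that bridge presynaptic neurexins and postsynaptic delta-type glutamate receptors and so organise synapses. Neurod6 is a basic helix-loop-helix transcription factor of pyramidal neurons, and Lamp5 is a brain member of the lysosome-associated membrane protein family found in cortical excitatory neurons and in a class of interneurons. Plcxd2 belongs to a family with a phospholipase C X domain, Wipf3 belongs to the family of proteins that bind WASP and regulate actin, and Fgf10 is a secreted fibroblast growth factor. Cortical projection neurons are stacked in layers that differ in their targets and gene expression, and a cortical impact strikes the upper layers first, with the hippocampus and thalamus beneath.

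On GRCm38, in the GENCODE annotation, Neurod6 lies on chromosome 6 from 55677822 to 55681263 on the minus strand and Wipf3 on the same chromosome from 54429603 to 54503768 on the plus strand. Lamp5 (chr2:136052239-136069917) and Cbln4 (chr2:172036233-172043466) share chromosome 2, on the plus and the minus strand. Cbln1 lies at chr8:87468405-87472609 on the minus strand, Plcxd2 at chr16:45959263-46010218 on the minus strand, and Fgf10 at chr13:118669791-118792115 on the plus strand. The position of Cbln2 is not reported here. The probes count exonic sequence of these genes wherever the transcript was hybridised, and say nothing of their promoters.

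To show what lies in front of the genes, the 250 bases before the RefSeq start of Neurod6, the member with the lowest ratio at 3 days, of Wipf3, the member with the lowest ratio at 28 days, and of Fgf10 were read from GRCm38.p6, each on the strand of its gene, 5′ to 3′. The RefSeq starts of Fgf10 and Wipf3 are not those of the GENCODE spans above, so the Fgf10 window lies within its span and the Wipf3 window overlaps the start of its own. Capitals mark the letters CAGATG, or CATCTG on the other strand, an E-box of the kind that NeuroD factors bind.
Neurod6, chr6:55681264-55681513, minus strand: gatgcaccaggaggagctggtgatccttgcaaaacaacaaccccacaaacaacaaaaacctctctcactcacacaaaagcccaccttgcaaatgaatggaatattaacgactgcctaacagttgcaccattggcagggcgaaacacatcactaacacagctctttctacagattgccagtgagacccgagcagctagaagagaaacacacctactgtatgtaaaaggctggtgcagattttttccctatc
Wipf3, chr6:54429436-54429685, plus strand: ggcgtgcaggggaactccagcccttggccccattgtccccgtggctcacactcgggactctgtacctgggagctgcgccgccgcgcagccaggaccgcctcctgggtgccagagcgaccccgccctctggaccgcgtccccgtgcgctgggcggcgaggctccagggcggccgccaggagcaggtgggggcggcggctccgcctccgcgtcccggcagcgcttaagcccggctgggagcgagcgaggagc
Fgf10, chr13:118714449-118714698, plus strand: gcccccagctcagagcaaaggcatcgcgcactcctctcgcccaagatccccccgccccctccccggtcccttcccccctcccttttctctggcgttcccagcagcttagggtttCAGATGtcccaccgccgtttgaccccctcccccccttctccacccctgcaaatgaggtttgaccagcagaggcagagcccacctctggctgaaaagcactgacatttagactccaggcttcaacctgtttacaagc
The letters were found at 1 of 7 start sites of 6 members, that of Fgf10, 136 bases before its start, against 14.4% of 32851 windows of the same length. A match is a description of the letters, not a binding site. The 3 windows differed in CpG dinucleotides, with 28 in front of Wipf3, 8 in front of Fgf10 and 3 in front of Neurod6, against a median of 6 over all windows. Plcxd2 had 19 and Cbln4 had 11, while the start sites of Lamp5 had 3 and 1. Start regions of Cbln1 and Cbln2 are not reported here.

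The 3 days section held 121967 bins with 120615873 UMIs and a median of 851 UMIs per bin kept, and the 28 days section held 105589 bins with 82422389 UMIs and a median of 610. Members gave between 744 UMIs (Fgf10 at 28 days) and 14272 UMIs (Lamp5 at 3 days) per section. Each section was cut by the capture array in its own way, with 2.08 mm of the injured side and 4.61 mm of the opposite side captured at 3 days, against 3.84 mm and 2.85 mm at 28 days. Levels are given in CPM, the UMIs of the gene per 1000000 UMIs of the same bins. Intervals are exact 95% intervals that cover counting error only, and with 1 section per group no difference between groups or zones had a test over animals.

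The maps of each gene set out the 8 patterns. On the opposite side Lamp5 followed the cortical sheet, Neurod6 and Wipf3 lit the hippocampal pyramidal layer, and Fgf10 was highest in a patch of the thalamus amid sparse UMIs elsewhere. Cbln1 lay mostly in the thalamus and hypothalamus in both sections.

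**Figure D1:**
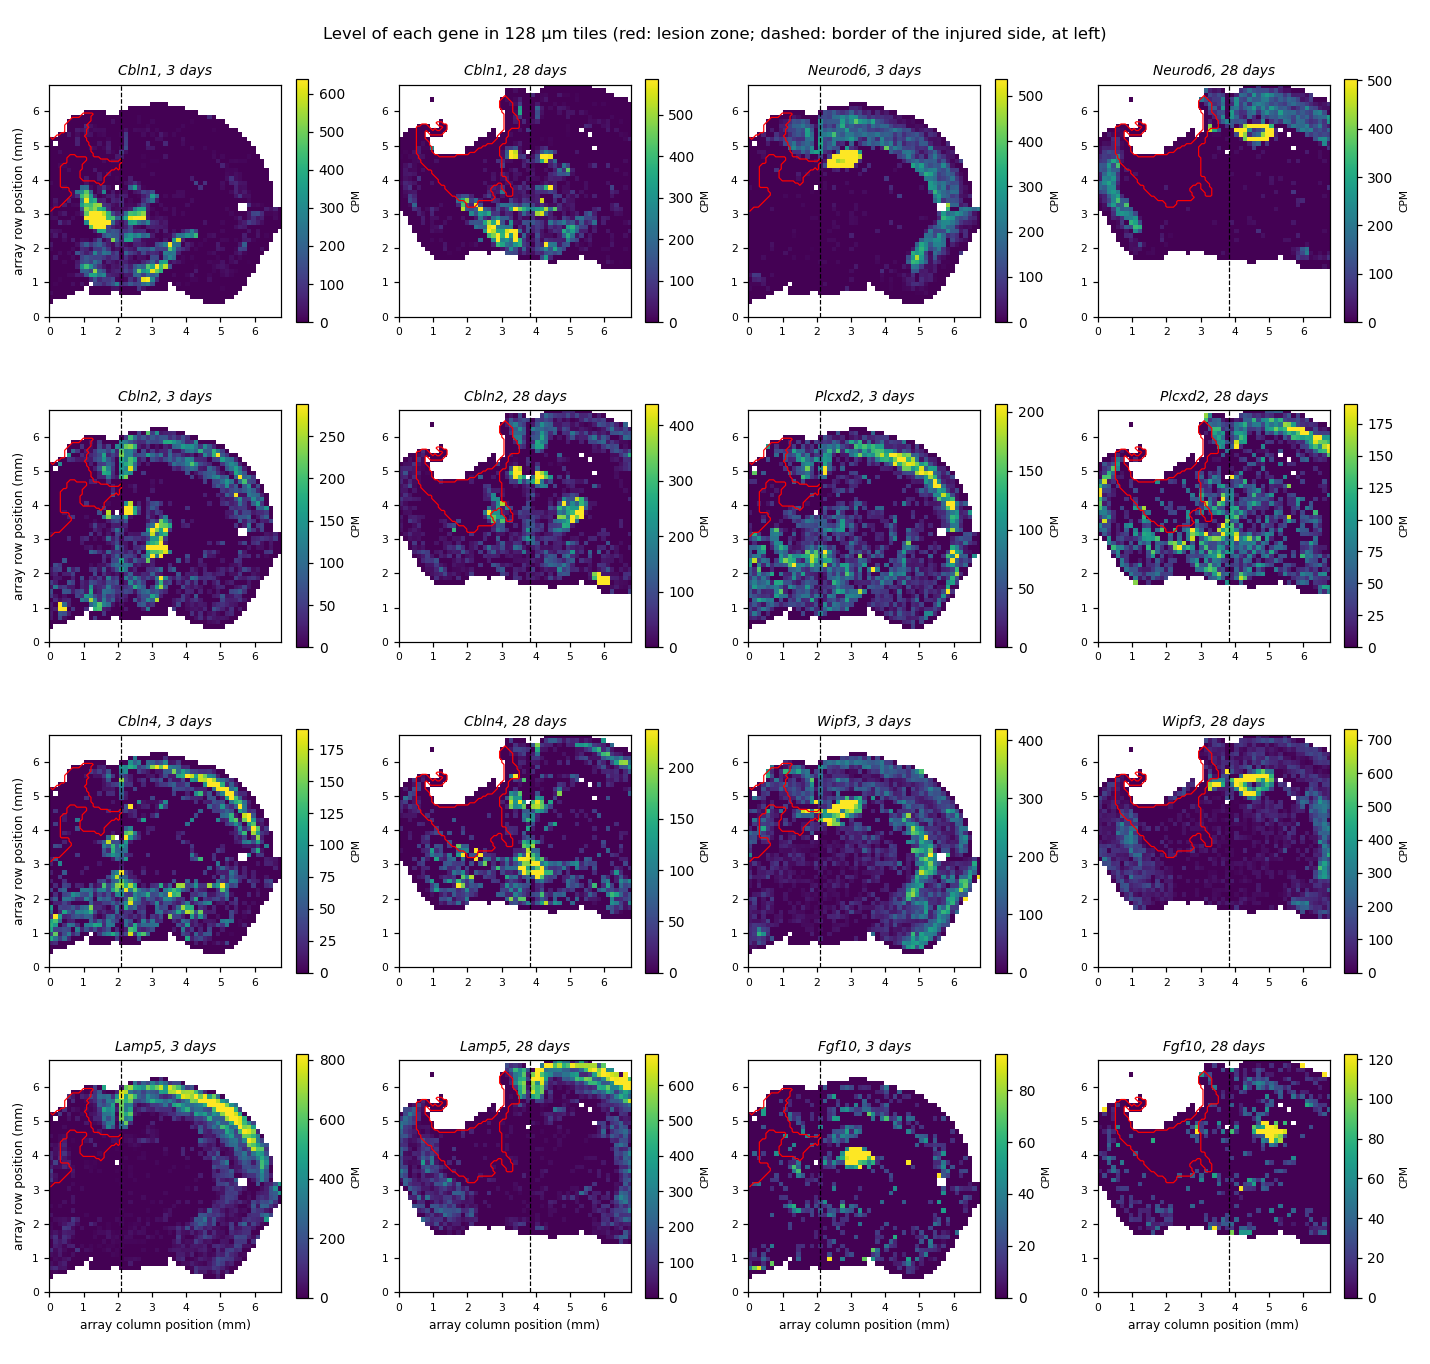
Level of each gene in CPM over the 3 days and 28 days sections, by array row and column position in mm, with the injured side left of the dashed line, the lesion zone outlined in red and tissue-free array in white. Lamp5 follows the cortex and Neurod6 the cortex and CA3 and CA2. For the Fgf10 patch of 124 CPM (3 days) and 129 CPM (28 days), no counterpart of like level was found on the injured side.

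To learn where the genes were expressed on the side opposite the impact, tiles of 64 µm were clustered without the 8 genes and named by marker lists. A cluster that could not be named is given by 1 or 2 of its leading genes. At 3 days 1853 bins of that side lay in tiles led by Klk6 and Gpnmb, which scored highest for reactive astrocytes. Tiles that scored highest for a cortical layer list held 31.9% of all UMIs of the opposite side at 3 days and 31.6% at 28 days. Of the Lamp5 UMIs, 78.2% (77.5 to 78.9%) and 79.2% (78.2 to 80.2%) lay in them, which made Lamp5 the most cortical of the 8. Cbln1 was at the other end, with 8.02% (7.02 to 9.11%) and 7.32% (6.04 to 8.78%). Neurod6 had 47.3% and 49.5% there, and Plcxd2 had 46.0% and 48.8%. The shares of Cbln2 and Cbln4 were unlike in the sections, at 50.7% each at 3 days and at 32.8% and 33.5% at 28 days. Wipf3 with 25.8% and 19.0% had less in the cortex than UMIs as a whole, while Fgf10 with 27.5% (24.4 to 30.8%) and 30.1% (26.2 to 34.3%) was close to it.

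The 3 cerebellins had partly separate territories. Cbln1 reached 140 CPM (131 to 149) in hypothalamus tiles and 89.5 CPM (84.1 to 95.1) in thalamus tiles at 3 days, which held 33.1% and 38.8% of its UMIs. The tiles led by Lhx8 and Nkx2-1 were level with the hypothalamus, at 137 CPM (119 to 158). Its level at 28 days was 95.7 CPM in the hypothalamus and 71.5 CPM in the thalamus, and the highest level was in the habenula with 314 CPM (272 to 361). The habenula is an epithalamic relay beside the midline.

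Cbln2 and Cbln4 were also high there at 28 days, with 372 CPM (325 to 422) and 180 CPM (148 to 217). The 32 habenula tiles of the injured side had almost the same levels, with 366 CPM of Cbln2, 172 CPM of Cbln4 and 263 CPM (221 to 309) of Cbln1. At 3 days the cluster with the habenula markers was led by the cholinergic genes Chat and Ngfr and also held ventral forebrain tiles, so it was left unnamed. Its 12 opposite-side tiles within 750 µm of the midline, a subset chosen after the values were seen, had 428 CPM (355 to 511) of Cbln2 and 214 CPM (164 to 275) of Cbln4 but 59.6 CPM (34.7 to 95.4) of Cbln1.

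In the cortex Cbln2 and Cbln4 were highest at 3 days in tiles led by Vip and Ntn5, which scored highest for the upper layers, at 97.5 CPM (91.7 to 104) and 85.7 CPM (80.2 to 91.4). The same 2 genes had 73.5 and 42.8 CPM in the tiles led by Ovol2 that made up most of the cortex at 28 days. The highest Cbln2 level of the 28 days section was 404 CPM (374 to 436), in tiles led by Sim1. Those tiles were unevenly captured, with 672 bins on the opposite side against 3832 on the injured side.

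Neurod6 had its highest level in CA3 and CA2 tiles in both sections, with 636 CPM (611 to 661) at 3 days and 736 CPM (701 to 771) at 28 days. These tiles held 34.1% and 44.2% of its UMIs in 4.83% and 5.13% of all UMIs of that side. No cluster was named for CA1, and a gene of the CA1 list was among the leading genes of these tiles in both sections. In the cortex its level was highest in the deep tiles, at 201 CPM (190 to 211) in those led by Nr4a2 and Trbc2 at 3 days and 163 CPM (150 to 176) in those led by Ighm and Krt80 at 28 days. Both clusters scored highest for layer 6b.

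Wipf3 was likewise highest in CA3 and CA2, with 512 CPM (490 to 535) and 911 CPM (872 to 950). The dentate gyrus, which formed a cluster of its own only at 28 days, had 886 CPM (819 to 956), within counting error of CA3 and CA2. Unlike Neurod6, Wipf3 was also high in the striatum, at 216 CPM (202 to 231) and 238 CPM (222 to 255).

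Lamp5 reached 649 CPM (634 to 665) in the tiles led by Vip and Ntn5 at 3 days and 467 CPM (454 to 481) in those led by Ovol2 at 28 days. Layer 5 tiles, named at 3 days, had 291 CPM (279 to 303). Plcxd2 had the opposite preference, with 119 CPM (111 to 127) in layer 5 and 56.0 CPM (51.6 to 60.6) in the tiles led by Vip and Ntn5. Outside the cortex Plcxd2 was highest in the hypothalamus at 3 days, with 59.7 CPM (53.8 to 66.0).

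Fgf10 was sparse. Thalamus tiles had its highest level in both sections, at 22.5 CPM (19.9 to 25.4) and 28.4 CPM (24.6 to 32.6), and held 34.2% and 39.7% of its UMIs. CA3 and CA2 tiles were within counting error of it, at 20.7 CPM (16.5 to 25.7) and 21.1 CPM (15.6 to 27.9), as were the tiles led by Ighm and Krt80 at 28 days, at 22.2 CPM (17.8 to 27.3). Within the thalamus it was concentrated in a patch about 1 mm from the midline, which was located after the values were seen. A circle of 400 µm radius at 1.10 mm from the midline had 183 UMIs (124 CPM) at 3 days, which was 23.9% of its opposite-side UMIs in 2.45% of the bins. The corresponding circle at 28 days, at 1.20 mm, had 158 UMIs (129 CPM), 30.9% of its UMIs in 3.61% of the bins.

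**Figure D2:**
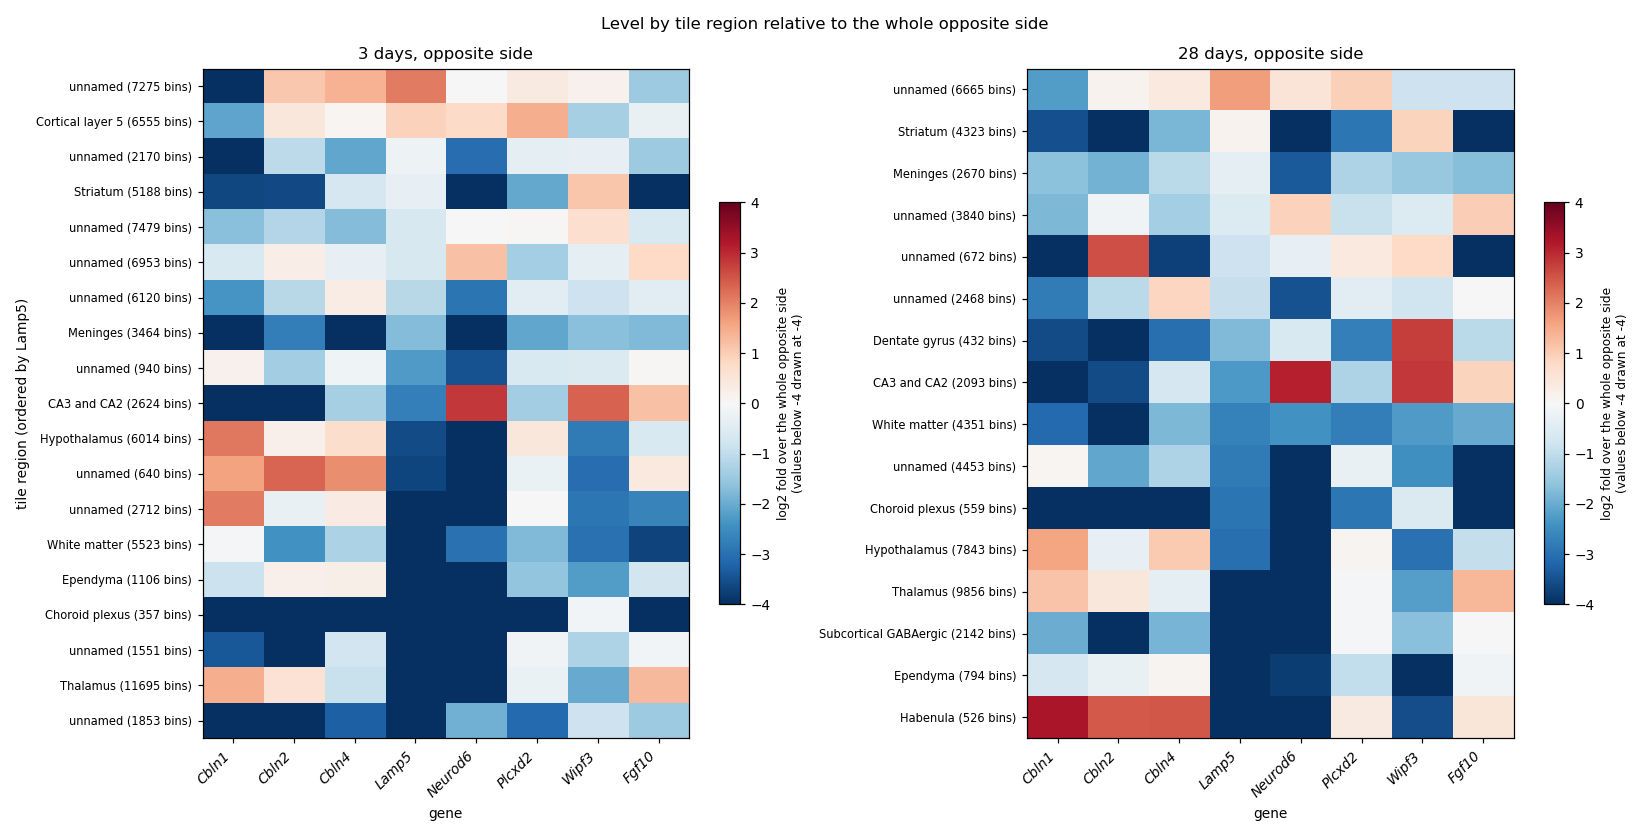
Level of each gene in each tile region relative to the whole opposite side (log2 fold, colour, cut at -4), with regions ordered by Lamp5 bins per region in brackets and clusters without a name drawn as unnamed. Neurod6 and Wipf3 are highest in tiles named CA3 and CA2, for Wipf3 at 28 days by a margin within counting error of the dentate gyrus. Fgf10 is highest in the thalamus by a margin within counting error of CA3 and CA2. Cbln1 is highest in the hypothalamus and an unnamed cluster of 2712 bins at 3 days and the habenula at 28 days.

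Distance from the outer tissue border placed the cortical part of each pattern in layers. The bands were read against the layer lists, of which the upper-layer genes were highest at 200 to 300 µm in the 3 days section, the layer 4 genes at 400 to 500 µm, the layer 5 genes at 600 to 700 µm and the layer 6b genes beyond 1100 µm. The cortex of the 28 days section was cut by the array, with 4696 bins that could be placed against 26451 at 3 days, so its profile is coarser.

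Lamp5 was low at the surface and had its highest bands just below it, with 620 CPM (594 to 647) at 300 to 400 µm at 3 days and 760 CPM (705 to 817) at 200 to 300 µm at 28 days. A shoulder followed at 308 CPM and 549 CPM, at 600 to 700 and 500 to 600 µm. Its profile was therefore that of an upper-layer gene with a second, weaker band near layer 5. Cbln2 had 2 bands as well. The first lay at 300 to 400 µm with 121 CPM (110 to 133) at 3 days and at 200 to 300 µm with 133 CPM (111 to 159) at 28 days. The other lay at 700 to 800 µm in both sections, with 100 CPM (86.5 to 115) and 147 CPM (116 to 185), and the intervals of the 2 bands overlapped in both sections.

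Cbln4 was narrower, with 121 CPM (109 to 133) at 400 to 500 µm at 3 days and 97.5 CPM (76.6 to 122) at 300 to 400 µm at 28 days. A deeper band of 45.3 CPM (35.8 to 56.6) at 800 to 900 µm was seen at 3 days. The Cbln4 peak thus lay 1 band of 100 µm deeper than the upper Cbln2 band in both sections and above the deeper Cbln2 band. Plcxd2 peaked deeper than Cbln4, with 137 CPM (123 to 153) at 500 to 600 µm at 3 days and 163 CPM (134 to 197) at 400 to 500 µm at 28 days.

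Neurod6 was low at the surface (60.9 CPM) and broad below it, with 189 CPM (174 to 205) at 400 to 500 µm and 199 CPM (165 to 238) at 1000 to 1100 µm at 3 days. These 2 maxima did not differ beyond counting error. Wipf3 had its maxima above and below the middle layers, at 118 CPM (107 to 129) at 200 to 300 µm and 89.7 CPM (74.5 to 107) at 900 to 1000 µm at 3 days, with 39.9 CPM between them. The 28 days section gave 129 CPM (107 to 153) at 100 to 200 µm and 116 CPM (87.7 to 149) at 700 to 800 µm. Fgf10 was highest deep in the cortex, with 19.8 CPM (13.1 to 28.9) at 900 to 1000 µm at 3 days, from 27 UMIs. Cbln1 had 19.9 CPM in its highest band at 3 days, at 1000 to 1100 µm.

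**Figure D3:**
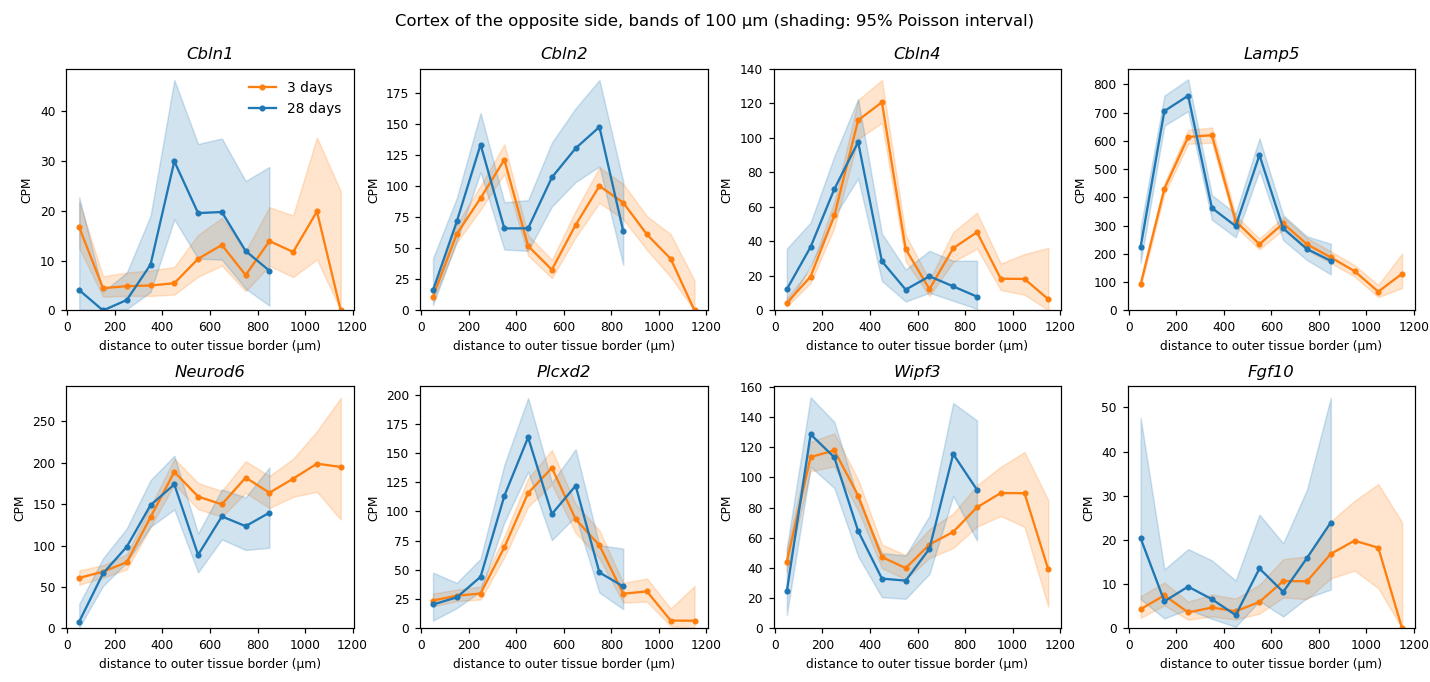
Level in CPM against distance to the outer tissue border in µm, in bands of 100 µm of opposite-side cortex, with a line and shaded 95% Poisson interval per section. By highest band, Lamp5 peaks above Cbln4 and Cbln4 above Plcxd2 in both sections, and each peak interval overlaps that of a neighbouring band. Cbln2 has an upper and a deeper band.

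Across the width of the cortex Cbln2 was highest near the midline in both sections. Within 500 µm of the midline it had 162 CPM at 3 days and 151 CPM at 28 days, against 55.4 to 71.6 CPM in the 4 more lateral bands at 3 days and 52.4 and 78.5 CPM in the 2 at 28 days. Cbln1, sparse in the cortex, was also highest there, with 23.6 CPM against 1.49 to 13.3 CPM farther out at 3 days and 30.7 CPM against 3.00 and 0.541 CPM at 28 days. Lamp5 was also highest near the midline at 3 days, with 517 CPM against 241 CPM in the next band and up to 408 CPM farther out, but not at 28 days, with 508 CPM near the midline and 532 CPM at 2000 to 3000 µm. Neurod6 had 178 and 181 CPM in the 2 medial bands at 3 days and 129, 101 and 134 CPM in the 3 lateral ones, and 143, 113 and 80.1 CPM from medial to lateral at 28 days.

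The genes whose pattern over tiles of 160 µm was most like each member were named over 809 tiles at 3 days and 552 at 28 days, from 8324 genes. Neurod6 was most like Neurod2, a related transcription factor, with a correlation of 0.80 and 0.87, then Tmem178 and Vxn. Lamp5 was most like Nrgn, Kcnh3 and Itpka, with correlations of 0.78 to 0.81. Wipf3 was most like the dendritic genes Ddn and Icam5 and the kinase gene Ptk2b, at 0.67 to 0.71. The cerebellins had weaker partners, which were Itih3, Calb2 and Impact for Cbln1, Car10, Ralyl and Rims3 for Cbln2, and Tmem145, Gprasp2 and Rasgrf2 for Cbln4, at 0.38 to 0.55. Plcxd2 was most like Ndfip1, Sncb and Elavl4, at 0.47 to 0.53. Fgf10 was like Nos1ap, Chrna4 and Map1b only at 0.28 to 0.34, and in counts this sparse such values carry little.

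Among themselves the members correlated weakly to moderately, with no clean split into groups. Lamp5 and Neurod6 correlated at 0.44 and 0.47 over the same tiles, Neurod6 and Wipf3 at 0.37 and 0.46, and Lamp5 and Wipf3 at 0.45 and 0.38. Cbln4 and Plcxd2 correlated at 0.40 and 0.36, Cbln2 and Plcxd2 at 0.31 and 0.30, and Cbln2 and Cbln4 at 0.35 and 0.21. At 3 days Lamp5 also correlated with Cbln2 (0.34), Cbln4 (0.31) and Plcxd2 (0.31), and at 28 days Cbln1 did with Cbln4 (0.32) and Cbln2 (0.26). Cbln1 ran against Wipf3, at -0.42 and -0.36, and against Lamp5, at -0.36 and -0.30. Tiles share a section and neighbour each other, so these values describe 2 sections and were not tested.

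The lesion zone was placed by 6 phagocyte genes that are not among the members and held 8522 bins at 3 days and 13559 bins at 28 days. Its mirror image across the midline, through the median position of the thalamic gene Gbx2, held 8549 and 12387 bins. Bins of the zone were shallower than those of the mirror zone, with a mean of 607 UMIs where the mirror bins had 969 in the 3 days section, and of 528 where they had 639 in the 28 days section. At 3 days 52.4% of its bins lay in tiles led by Klk6 and Gpnmb and 26.3% lay in tiles led by Cxcl10 and Hba-a2. At 28 days 51.1% lay in tiles named by phagocyte markers.

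The mirror zones were not the same tissue. At 3 days 20.8% of mirror bins lay in CA3 and CA2 tiles, 16.6% in the deep cortical tiles led by Nr4a2 and Trbc2 and 14.8% in layer 5 tiles, while at 28 days 34.2% lay in the thalamus, 16.9% in white matter and 11.7% in the striatum. The 3 days mirror zone also had 9.21% of its bins in the tiles led by Klk6 and Gpnmb, which held 52.4% of the zone. The zones differed from their mirrors as well, and at 3 days no zone bin lay in CA3 and CA2 tiles, while 12.6% lay in striatum tiles, which held none of the mirror bins. Each section is therefore read on its own below, and the difference between the times in age of the lesion and in tissue captured cannot be told apart.

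All 8 members had at least 20 UMIs over both zones in each section. In the 3 days section 7 of them were at least 2-fold below their mirror level in the lesion zone, and 5 of 8 were at 28 days. Of all genes with 20 UMIs, 8.66% were at least 2-fold lower at 3 days and 8.14% at 28 days, and with a minimum of 200 UMIs 8.96% of 9984 and 7.89% of 10173 were. The members were chosen on this contrast, so their count says nothing beyond the choice. Their median log2 ratio was -2.57 at 3 days and -1.57 at 28 days, beside 0.14 and 0.01 for all genes. For scale, the fifth and sixth lowest genes among those with at least 200 UMIs were Prdm8 (-3.86) and Npy2r (-3.84) at 3 days and Fgf10 itself (-2.56) and Hpca (-2.50) at 28 days.

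Neurod6 had 12.95 CPM in the lesion zone at 3 days against 281 CPM in the mirror zone, from 67 and 2332 UMIs. This was 21.6-fold lower, a log2 ratio of -4.43 (-4.81 to -4.09), the second lowest of the 9984 genes. At 28 days it had 15.2 CPM in the zone and 91.3 CPM in its mirror, a ratio of -2.58 (-2.89 to -2.29), the fourth lowest of 10173. Its level in the zone was thus alike in the sections and the mirror levels were not.

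Wipf3 gave the reverse order of the times. It had 62.8 CPM in the zone against 225 CPM at 3 days, a ratio of -1.84 (-2.02 to -1.67). At 28 days it had 25.1 against 160 CPM, a ratio of -2.67 (-2.90 to -2.44), the third lowest of 10173 genes.

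Lamp5 was lower by a similar amount at both times, with 23.8 against 117 CPM at 3 days (-2.29, -2.58 to -2.02) and 14.9 against 51.6 CPM at 28 days (-1.78, -2.11 to -1.48). Plcxd2 was not. It had 6.19 against 34.0 CPM at 3 days (-2.44, -3.04 to -1.93), yet 14.9 against 26.2 CPM at 28 days (-0.80, -1.16 to -0.46), which was less than 2-fold. Against the whole opposite side Plcxd2 was at -1.56 at 28 days.

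The cerebellins ranged from clearly lower to higher. Cbln4 had 9 UMIs in the zone at 3 days against 171 in the mirror zone, which is 1.74 against 20.6 CPM and a ratio of -3.49 (-4.72 to -2.61). Its levels at 28 days were 7.27 and 7.33 CPM, a ratio of -0.01 (-0.58 to 0.55), so no difference was detectable at that depth. The mirror zone there held only 3.96% of its opposite-side UMIs. Against the whole opposite side Cbln4 was at -2.14 at 28 days.

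Cbln2 had 3.67 against 24.5 CPM at 3 days (-2.70, -3.50 to -2.06) and 25.3 against 64.6 CPM at 28 days (-1.35, -1.61 to -1.11). Cbln1 was low in both zones at 3 days, with 34 and 29 UMIs, and was higher in the lesion zone, at 6.57 against 3.50 CPM (0.91, 0.15 to 1.68). The mirror zone had only 1.08% of the opposite-side Cbln1 UMIs. The direction turned with the reference, and against the whole opposite side Cbln1 was at -2.28. At 28 days Cbln1 was lower in the zone, at 11.7 against 19.1 CPM (-0.70, -1.10 to -0.31).

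Fgf10 had 12 UMIs in the zone against 134 at 3 days and 30 against 198 at 28 days. As levels these were 2.32 against 16.2 CPM (-2.75, -3.79 to -1.95) and 4.19 against 25.03 CPM (-2.56, -3.18 to -2.02). The mirror zone of 28 days alone held 38.7% of its opposite-side UMIs, the highest share of any member.

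**Figure D4:**
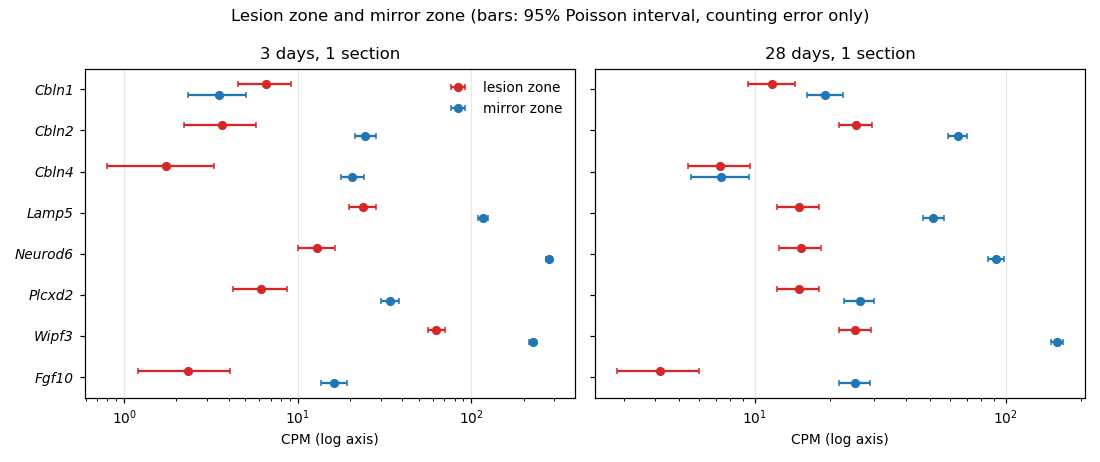
Level in CPM (log axis) of each gene in the lesion zone (red) and the mirror zone (blue) of the 3 days and 28 days sections, with 95% Poisson intervals of the UMI count. Neurod6 lies at 12.95 and 15.2 CPM in the zones against 281 and 91.3 CPM in the mirror zones, and the points of Cbln4 coincide at 28 days.

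The 3 days values depend on where the midline was drawn. A line free to move gave the best mirror correlation 384 µm away from the one through Gbx2, and with it Neurod6 was at -2.85, Wipf3 at -0.34, Cbln2 at -3.63, Cbln4 at -4.45, Lamp5 at -3.32 and Plcxd2 at -3.20. Cbln1 was at 2.10 and Fgf10 at -2.17 there. No member changed sign, but Wipf3 was no longer 2-fold lower, and the mirror correlation was 0.36 with the line used and 0.47 with the free one. At 28 days both lines coincided.

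The levels of other cell types differed along with these values. The 5 phagocyte markers, which are not the 6 genes that placed the zone but mark the same cells, were all at least 2-fold higher in the zone at both times, with medians of 2.11 and 5.76 on the log2 scale and summed UMIs of 7330 against 1122 at 3 days and 35386 against 802 at 28 days. All 4 reactive astrocyte markers were higher as well, with medians of 1.82 and 4.83. The 8 pan-neuronal genes, which mark neurons of any kind, were summed to 2616 CPM in the zone against 7961 CPM at 3 days (-1.61) and 3001 against 7665 CPM at 28 days (-1.35). Fewer neurons and less RNA per neuron cannot be told apart in such sums, and the part of the other cell types in the members' values was not tested.

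Read per pan-neuronal UMI in place of all UMIs, 4 of 8 members were still at least 2-fold lower at 3 days. Of all genes 0.509% were on this scale at 3 days and 0.176% at 28 days, and since the members were chosen on the same bins nothing is read from their count. Neurod6 was the lowest, with 4.95 against 35.3 UMIs per 1000 pan-neuronal UMIs, a log2 ratio of -2.83 (-3.21 to -2.49). It was followed by Cbln4 at -1.89 (-3.12 to -1.004), Fgf10 at -1.14 (-2.18 to -0.34) and Cbln2 at -1.10 (-1.89 to -0.45). Plcxd2 (-0.83), Lamp5 (-0.68) and Wipf3 (-0.23) were less than 2-fold below their share of neuronal RNA, and Cbln1 was above it at 2.51.

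At 28 days the genes at least 2-fold lower per pan-neuronal UMI were Wipf3 at -1.31 (-1.55 to -1.09), Neurod6 at -1.22 (-1.53 to -0.94) and Fgf10 at -1.20 (-1.83 to -0.67). Lamp5 was at -0.43 (-0.75 to -0.12). Cbln2 had the same value in both zones, 8.43 per 1000, while Cbln1 (0.66), Plcxd2 (0.55) and Cbln4 (1.34) were above their mirror zone. Neurod6 and Fgf10 were thus the only members at least 2-fold lower on both scales at both times, and with 8 excitatory neuron genes as the reference Fgf10 at 3 days was at -0.74 and only Neurod6 was.

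With bins thinned to 300 UMIs, the share of bins with a Neurod6 UMI at 3 days was 0.292% (0.178 to 0.450%) in the zone against 5.39% in its mirror. Unthinned, these were 0.751% and 14.0%, at median depths of 506 and 766 UMIs. White matter, which lacks neuronal cell bodies, gave 0.137% (0.0166 to 0.494%), an interval that overlaps that of the zone. The values at 28 days were 0.262% and 1.30%, with 0.466% (0.151 to 1.08%) in white matter. Thalamus bins of the opposite side had 0.0613% and 0.0446% at the 2 times, below the zone shares, while the white matter values rest on 2 and 5 bins.

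Lamp5 was seen in 0.525% of zone bins and 2.90% of mirror bins at 3 days, beside 0.274% in white matter, and in 0.350% and 1.14% at 28 days, beside 0.559%. Cbln2 was seen in 0.117% (0.0504 to 0.230%) of zone bins at 3 days, an interval that overlaps the 0.274% (0.0746 to 0.700%) of white matter, and Cbln4 in 2 zone bins, too few to read. White matter bins were shallow, with medians of 219 and 214 UMIs, and 4062 and 3278 of them were left out by the thinning. Wipf3 was seen in 1.56% (1.28 to 1.88%) of zone bins and 4.30% of mirror bins at 3 days, against 0.342% (0.111 to 0.797%) in white matter and 4.08% in the choroid plexus. At 28 days it was in 0.623% of zone bins and 2.88% of mirror bins, against 0.839% and 2.62% in those tissues, so at 3 days the zone share was above white matter and below choroid plexus.

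Outside the zone the median of the members was nearer to the mirror level than inside it. Their median log2 ratio at 3 days was -2.67 more than 250 µm inside the border and -2.51 up to 250 µm inside. The innermost band was sparse, with 1 injured-side UMI each of Cbln2, Cbln4 and Fgf10. Outside, the median was -1.98 in the first 250 µm, -0.44 at 250 to 500 µm, 0.20 at 500 to 1000 µm, -0.30 at 1000 to 2000 µm and 0.08 beyond. When the zone was drawn at the 95th percentile, which takes in more tissue, the 3 bands from the border to 1000 µm had medians of -0.48, 0.054 and -0.25. The pan-neuronal sum ran from -1.73 to -0.79 in the first 250 µm outside and to -0.14 at 250 to 500 µm. In the first 250 µm outside, 5 of 8 members were at least 2-fold lower, as were 3.59% of the 13520 genes with at least 20 UMIs there. With the zone at the 95th percentile, Neurod6 (-1.13) and Fgf10 (-1.41) still were, while Cbln4 (-0.38), Cbln2 (-0.57) and Lamp5 (-0.75) no longer were.

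The members differed in how far out they were low at 3 days. Neurod6 went from -2.14 (-2.34 to -1.94) in the first 250 µm to -0.08 (-0.34 to 0.19) in the next. Plcxd2 and Wipf3 were at -0.53 and -0.91 in the first band and at 0.14 and 0.10 in the next, with intervals across 0. Lamp5 was at -1.98 and then at -1.24 (-1.42 to -1.07), at 0.32 at 500 to 1000 µm, and below 0 again farther out, at -0.48 and -0.75 (-1.16 to -0.36).

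Cbln2 was at -1.99, -1.27 and -1.53 in the 3 bands to 1000 µm, at -0.70 at 1000 to 2000 µm and at 0.78 (0.55 to 1.002) beyond. Cbln4 was at -2.43 in the first band and -0.80 (-1.23 to -0.39) in the second, and Fgf10 was at -2.40 and -1.16, and at -0.80 (-1.40 to -0.23) at 1000 to 2000 µm. Cbln1 was above its mirror level in each band from the border to 2000 µm, up to 1.99 (1.66 to 2.34) at 250 to 500 µm, with 82.0 against 20.6 CPM, and below it beyond 2000 µm, at -0.59 (-0.77 to -0.40). These bands cross from cortex into thalamus, so the tissue in them is not that of the zone.

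At 28 days the median of the members was -1.95 deep inside, where Neurod6 had 1 UMI against 5 in mirror tissue. The median was -1.50 up to 250 µm inside and -0.26 in the first 250 µm outside (-0.047 with the zone drawn at the 95th percentile). Cbln1 was above the mirror level in each outside band, at 0.92 (0.65 to 1.20), 0.55, 0.49 and 1.04 from the border out. In the first 250 µm outside, Cbln2 (-0.04), Plcxd2 (-0.02) and Cbln4 (0.45) were close to or above the mirror level. Neurod6 was the lowest there, at -1.93 (-2.11 to -1.76), with 45.4 against 173 CPM, and at -0.82 in the next band. Wipf3 (-1.003 and -0.87) and Fgf10 (-1.16 and -0.47) were also at least 2-fold lower in the first band.

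Lamp5 was lower again farther out at 28 days, at -0.47 in the first band, -1.08 in the second and -1.85 at 500 to 1000 µm, where it had 60.5 against 218 CPM. In the last band, at 1000 to 2000 µm, Lamp5 was above the mirror level, at 0.46 (0.28 to 0.64). Cbln2 was as low at 1000 to 2000 µm, at -2.14 (-2.36 to -1.93) with 26.6 against 117 CPM, as deep inside the zone, at -2.13 (-2.81 to -1.55). On the opposite side the circle of 400 µm radius around the block of tiles with the highest Cbln2 level lay 2.12 mm from the midline. It had 341 CPM against 15.3 CPM at its mirror position, and 74.4% of its bins lay in tiles without a region name. The circle around the injured-side block of tiles with the highest Cbln2 level had 167 CPM, 3.59 mm from the mirror position. The part of tissue position in this difference was not tested.

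**Figure D5:**
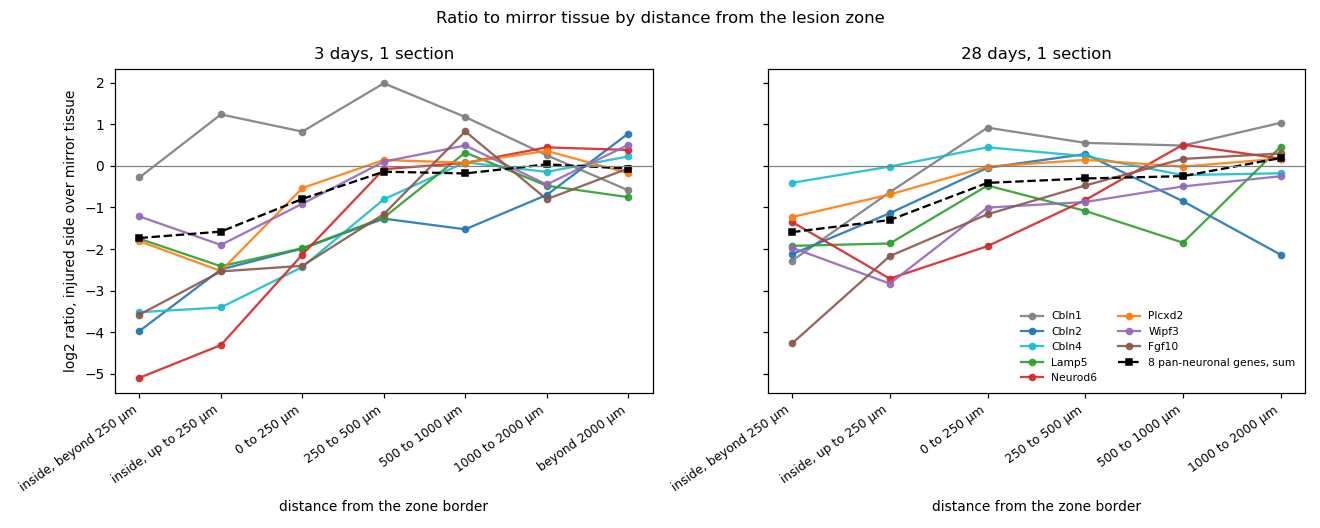
Log2 ratio of each gene on the injured side over mirror tissue, by distance from the border of the lesion zone in µm, for the 3 days and 28 days sections, with the sum of 8 pan-neuronal genes dashed. At 3 days the median of the 8 genes is -1.98 in the first 250 µm outside and -0.44 at 250 to 500 µm. At 28 days Neurod6 is the lowest in the first 250 µm outside, at -1.93.

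Because mirror positions can fall in other layers, the levels near the lesion were also compared within tiles of the same cluster. Cortical tiles led by Ovol2 at 28 days offered 1315 injured-side bins within 250 µm of the zone and 6665 on the opposite side. Lamp5 had 302 CPM there against 467 CPM, a log2 ratio of -0.63 (-0.76 to -0.50), and 279 CPM at 250 to 500 µm (-0.74, -0.89 to -0.60). Neurod6 had 84.5 against 123 CPM (-0.53, -0.79 to -0.30) and then 92.3 CPM (-0.41, -0.67 to -0.16).

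Neither gene was at the opposite-side level farther out, and at 500 to 1000 µm, in 226 bins, Lamp5 was at 179 CPM (-1.37) and Neurod6 at 84.1 CPM (-0.53). Cbln4 was at -0.80 (-1.29 to -0.37) within 250 µm. Plcxd2 was at -0.02 (-0.28 to 0.23), Wipf3 at -0.26 (-0.57 to 0.02) and Cbln2 at 0.42 (0.18 to 0.65). Cbln1, at 6.82 CPM in these tiles on the opposite side, had 47.1 CPM within 250 µm of the zone, from 87 UMIs.

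In the deeper tiles led by Ighm and Krt80, Neurod6 was at -0.19 (-0.51 to 0.11) within 250 µm and above the opposite side farther out, at 0.40 and 0.63. Lamp5 was lower in them throughout, at -0.67, -2.17 and -1.35. The 2 sides were captured over different widths, and levels of both genes differ along the width of the cortex as given above, so these comparisons also mix positions.

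Thalamus tiles came from 2 clusters. At 3 days the one led by Gbx2 had 355 of 628 tiles on the injured side and the one led by Prkcd 22 of 468, so the injured side was almost all of the first kind. Cbln2 had no UMI in 452 thalamus bins within 250 µm of the zone at 3 days, against 69.0 CPM on the opposite side, and 18.2, 27.6 and 49.2 CPM in the next 3 bands.

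Cbln1 had 73.7 CPM in the nearest thalamus band at 3 days, then 211, 365 and 402 CPM, against 89.5 CPM on the opposite side. Fgf10 had 18.9, 12.7, 2.60 and 5.89 CPM against 22.5 CPM. At 28 days each cluster had 211 injured-side tiles, and Fgf10 was at 9.05, 3.07 and 6.42 CPM in the 3 bands to 1000 µm against 28.4 CPM (ratios of -1.60, -3.04 and -2.03).

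The Fgf10 patch of the thalamus was also set against its mirror circle. At the mirror position there were 6 UMIs, 3.71 CPM, at 3 days, when 23.4% of that circle lay in the zone, and 17 UMIs, 19.5 CPM, at 28 days, when 90.9% did. The circle around the injured-side block of tiles with the highest Fgf10 level had 14.3 CPM at 3 days and 24.999 CPM at 28 days, against 124 and 129 CPM in the patch. At 3 days most of the mirror circle was outside the zone, but its position depends on the line of reflection. The free line lay 384 µm away, and no circle was placed with it. Thalamus tiles held 67.3% of the bins of the 3 days patch, and the thalamus tiles of the injured side were almost all of the Gbx2 cluster then.

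The hippocampal patches of Neurod6 and Wipf3 were set against their mirror circles too. Neurod6 had 765 CPM in the circle around its highest block of tiles at 3 days and 3 UMIs (2.64 CPM) at the mirror position. It had 702 CPM at 28 days and no UMI in 822 mirror bins. Wipf3 had 596 against 57.8 CPM and 934 against 113 CPM. The circles around the highest blocks of tiles of the injured side, away from the mirror position, had 138 and 127 CPM of Neurod6 and 214 and 333 CPM of Wipf3. The injured side had no CA3 and CA2 tile at 3 days, against 2624 bins on the opposite side, and 352 against 2093 bins at 28 days.

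Over the whole injured side outside the zone, the members ranged from lower to higher than on the opposite side. The tissue was not the same, and at 3 days the injured side held 88 layer 5 bins against 6555, 48 against 6953 in the tiles led by Nr4a2 and Trbc2, and 176 against 7275 in those led by Vip and Ntn5. Lamp5 (-1.88), Neurod6 (-1.99) and Wipf3 (-1.35) were lower than on the opposite side at 3 days, and at -0.78, -0.93 and -0.86 at 28 days. Cbln1 was higher, at 1.70 and 0.89. Plcxd2 was close to even at 0.05 (-0.04 to 0.14) and 0.17 (0.08 to 0.27). Cbln4 was at -0.20 and 0.21.

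The relatives and partners of each member came from family and partner lists, which were chosen with earlier results of these data known. Of 8 cerebellin partners and relatives with enough UMIs, 4 were at least 2-fold lower in the zone at 3 days and 1 at 28 days, with medians of -0.87 and -0.09. The presynaptic neurexin gene Nrxn2 was at -0.69 and -0.37, and the delta receptor gene Grid1 at -0.49 and -0.94.

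The other secreted C1q-like genes were unlike each other. C1ql2 was at -3.57 (-4.27 to -2.99) and 0.99, C1ql3 at -1.59 and 0.63, and C1ql1 was higher in the zone, at 1.25 and 1.48. Adgrb3, which encodes a receptor of C1q-like proteins, was at -1.05 and -1.09. The neurexin gene Nrxn3 was not analysed here.

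Among the relatives of Neurod6, Neurod1 was at -3.88 (-5.02 to -3.04) at 3 days and -0.67 at 28 days, Neurod2 at -2.38 and -1.54, and Bhlhe22 at -2.60 and -0.85. The broadly expressed Tcf4 was at -0.33 and 0.25. Neurod1 thus had a ratio near that of Neurod6 at 3 days only. Lamp1 and Lamp2, general lysosomal membrane genes, went the other way from Lamp5, at 1.05 and 1.15 at 3 days and 1.49 and 1.39 at 28 days.

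Plcxd3 was at -1.58 and -0.50 and Plcxd1 at -0.07 and -0.91, from few UMIs. Of 9 genes of the WIP family and its actin partners, 1 was at least 2-fold lower at each time, Wasf1 at -1.34 and -1.27. Was, a gene of blood cells, was at 2.55 and 3.59 and Wipf1 at 2.08 and 1.57, and Wipf2 was at -0.55 and -0.58. Of 5 genes of the Fgf10 receptor and ligand family, 1 was at least 2-fold lower at 3 days (Fgf22 at -1.23) and none at 28 days. The Fgf10 receptor gene Fgfr2 was at 0.73 and -0.07, and the subfamily members Fgf7 and Fgf22 had at most 65 UMIs in a zone.

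For comparison, all 8 excitatory neuron markers were at least 2-fold lower in the zone at 3 days (median -1.97) and 6 of 8 at 28 days (-1.31). The 9 GABAergic markers had 4 and 7 that were (-0.89 and -1.25), and the 5 CA3 and CA2 markers had 5 and 4 (-1.95 and -1.52). Upper-layer markers were nearer to even, with 1 of 5 and none at least 2-fold lower (-0.70 and -0.44). The 5 striatum markers were all at least 2-fold higher in the zone at 3 days (2.93) and all at least 2-fold lower at 28 days (-1.70). The lists share bins and libraries with the members, so their medians are set beside each other as a description.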

How the data were processed

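The deposited values were raw UMI counts per gene and bin of 16 µm, made by the authors with Space Ranger (4.0.1 per the matrix header) and the standard mouse probe set (version 2.0), with mm10 named in the submitters' processing notes. The authors analysed them in Seurat. Groups were taken from the sample labels. The members and the gene lists were chosen with earlier results of these data known.

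Bins under 100 UMIs were left out (1.93% at 3 days and 2.15% at 28 days). Over tiles of 64 µm, the summed share of Lgals3, Laptm5, Cd52, Lyz2, Cd68 and Ctsz, smoothed over 5 by 5 tiles, was compared with the opposite side, and the lesion zone was the tiles above its 99th percentile in patches of at least 25 tiles. The side was set by array column, below 130 at 3 days and below 240 at 28 days for the injured side. Mirror tissue came from a reflection line through the median position of Gbx2, tilted by at most 15 degrees to give the best mirror correlation of 10 regional genes. Log2 ratios used UMIs summed over bins, divided by the UMIs of all genes there, with 0.5 UMI added. For the zones and within clusters, the 2 sides together had to give 20 UMIs or more. The members' ratios in the distance bands had no such minimum. A gene was counted at a 2-fold difference. Intervals were exact 95% binomial or Poisson intervals, which cover counting error only. Each group had 1 section, so there was no replicate spread and no p-value.

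Tiles with at least 1000 UMIs were scaled to 10000 counts and clustered without the members (2000 variable genes, 30 components, 15 neighbours, Leiden resolution 1). After the values were seen, a cluster was left unnamed when none of its list's markers was among its 10 leading genes, when another list had more there, or when cholinergic genes outnumbered its own markers. The cortical share, the circles and the habenula tiles near the midline were also chosen then. Circles were centred on the block of neighbouring tiles with the highest level on a side, among blocks above a minimum of UMIs, or on its mirror position. Regions needed 200 bins. For shares of bins with a UMI, bins were thinned to 300 UMIs. Likeness was the Pearson correlation of log2(CPM + 20) over tiles of 160 µm.

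The genes named were the members, the 3 most like each of them averaged over both sections, the fifth and sixth lowest in each section, all genes of the family and partner lists, and at most the 2 lowest and 2 highest of other lists. Other scalings, zone thresholds, axes, minimums, pseudocounts and resolutions were tried. Trpc6 and Nrxn3 were not analysed here, and some list genes and leading genes are not reported here. The scripts were tested on simulated data and ran in Python 3.11.15 with scanpy 1.11.5, leidenalg 0.10.2, anndata 0.12.19, scipy 1.17.1, numpy 2.4.6, igraph 0.11.9, pandas 2.3.3, matplotlib 3.10.9 and scikit-learn 1.9.0, and in R 4.3.3 with edgeR 4.0.16, which gave TMM scaling factors only.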

Additional observations from a re-analysis of the deposited data

Results flagged for a closer look

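The members were searched for a change of sign over the zone, the distance bands, the sides, thalamus tiles and the per-neuronal scale. Listed below are the contrasts in which a member lay on opposite sides of 0 in the 3 days and 28 days sections, with counting intervals that exclude 0 in each. The share of all genes that would do so was not computed, so nothing is read from their number. The difference between the sections was not tested, since each time had 1 section, and the tissue captured differed between them. Cbln1 was at 0.91 (0.15 to 1.68) in the lesion zone over its mirror at 3 days and at -0.70 (-1.10 to -0.31) at 28 days. With the whole opposite side as the reference it was at -2.28 and -1.45, so the signs were then the same. Cbln4 on the injured side outside the zone, over the opposite side, was at -0.20 (-0.31 to -0.09) and 0.21 (0.10 to 0.33). Per pan-neuronal UMI, Cbln4 in the zone over its mirror was at -1.89 (-3.12 to -1.004) at 3 days and at 1.34 (0.77 to 1.91) at 28 days, and Plcxd2 was at -0.83 (-1.43 to -0.32) and 0.55 (0.19 to 0.89). By distance from the zone, Cbln1 up to 250 µm inside was at 1.24 (0.38 to 2.15) and -0.63 (-1.06 to -0.22), and Cbln4 in the first 250 µm outside was at -2.43 (-3.07 to -1.88) and 0.45 (0.09 to 0.80). Cbln2 at 250 to 500 µm was at -1.27 (-1.53 to -1.02) and 0.28 (0.09 to 0.48), but with the 95th percentile as zone threshold the 28 days value was -0.78, so the signs were then the same. At 500 to 1000 µm Lamp5 was at 0.32 (0.12 to 0.53) and -1.85 (-1.99 to -1.71) and Wipf3 at 0.49 (0.19 to 0.80) and -0.49 (-0.67 to -0.32). Lamp5 at 1000 to 2000 µm was at -0.48 (-0.78 to -0.17) and 0.46 (0.28 to 0.64). Within thalamus tiles at 500 to 1000 µm, over those of the opposite side, Plcxd2 was at -0.40 (-0.76 to -0.07) and 0.997 (0.62 to 1.35).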

How the results depend on the processing

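No paired analysis was possible because each group had 1 section. For the 16 zone ratios of single members under all settings tried, 116 values differed from those given by less than their counting interval and 43 by more. Cbln4 at 28 days, with an interval across 0, went from -0.01 to 0.002 with the array column as the axis, a turn counted among the 116. In 1 further value the sign turned from that of a ratio whose interval excluded 0. That one was Cbln1 at 3 days, at -2.28 when the reference was the whole opposite side in place of the mirror zone. With that reference 8 members in place of 5 were at least 2-fold lower at 28 days. With smoothing over 3 by 3 tiles the median of the members at 28 days was -2.17 in place of -1.57. A zone threshold at the 95th percentile, which takes in more tissue, moved the first 250 µm outside to a median of -0.48 at 3 days and -0.047 at 28 days. It moved the median at 250 to 500 µm at 3 days to 0.054 and the Cbln2 ratio at 250 to 500 µm at 28 days from 0.28 to -0.78. Levels per bin in place of per UMI gave -0.51 in the first 250 µm at 28 days. With 8 excitatory neuron genes as the neuronal reference, Wipf3 at 3 days was at 0.17 in place of -0.23, and 2 members (Neurod6 and Cbln4) in place of 4 were at least 2-fold lower. Cluster resolution 2 put Cbln4 in the thalamus at 500 to 1000 µm at 3 days at -1.01 in place of 0.56. The region with the highest level was the same or an overlapping one for 5 of 8 members at resolution 2 at 3 days and for 5 with UMIs per bin at 28 days. The median of the dentate gyrus list at 3 days was 0.20 with a minimum of 200 UMIs in place of -1.36. Of the 24 genes most like the members, 14 were shared when likeness used log2(CPM + 100). The cause of these shifts was not tested. Depth limits the values of Cbln4, Fgf10, Cbln2, Plcxd2 and Cbln1 at 3 days most, which rested on 9, 12, 19, 32 and 34 UMIs in the lesion zone, and of Fgf10 at 28 days, which rested on 30.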
